A study of Mus musculus with 37 samples.

Results

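The Obox (oocyte-specific homeobox) genes Obox1, Obox2, Obox3, Obox5 and Obox6 were followed from the fully grown mouse oocyte to the late 2-cell embryo, with and without maternal BAP1. They were picked by symbol and are 5 of the 55401 genes of the total RNA table. All 5 had at least 1 FPKM (a fragment count divided by gene length and library size) in at least 2 of the 26 total RNA libraries and so were among the 15184 genes tested. Obox3 and Obox6 met this limit only through the 2-cell libraries.

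Obox genes encode homeodomain transcription factors that form a rodent-specific cluster related to the Crx and Otx class. Obox1, Obox2, Obox5 and Obox7 are known as maternal members, stored as RNA in the egg, and Obox3 and Obox4 as members transcribed by the embryo. Together they act redundantly at genome activation, where they bind promoters and enhancers of early embryonic genes and help RNA polymerase II reach them. BAP1 is the ubiquitin hydrolase that removes ubiquitin from histone H2A and so opposes the Polycomb repressive complex that adds it.

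Control oocytes and eggs carried the genotype Bap1 flox/flox. Knockout oocytes and eggs also carried Gdf9-iCre, a recombinase driven by an oocyte promoter, which deletes Bap1 in growing oocytes while the other tissues of the mother keep it. Embryos came from these control or knockout eggs and a B6 male, so every 2-cell knockout embryo held a wild-type paternal Bap1 allele. The stages were the fully grown oocyte (FGO), the metaphase II egg (MII), the late 1-cell embryo (L1C), the early 2-cell embryo (E2C) and the late 2-cell embryo (L2C). Every stage had 3 knockout libraries, and 2 control libraries except E2C, which had 3. A further 11 poly(A) libraries came from embryonic day 6.5 embryos of the same mothers' genotypes and PWK males, as epiblast (2 control, 2 knockout), visceral endoderm (2 and 2) and extraembryonic ectoderm (1 and 2). The labels do not say whether the libraries of a group came from separate females, so the tests measure the spread between libraries, which may be technical.

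The depth of each library is unknown, since FPKM keeps no read number. The total RNA libraries summed to between 300668 and 430784 FPKM and listed between 10353 and 11942 genes at 1 FPKM or more. Bap1 itself was lower in every knockout library than in every control library of its stage, between 16.3 and 29.9 FPKM in controls and between 3.76 and 7.05 FPKM in knockouts through E2C, and between 9.69 and 11.7 FPKM in L2C knockouts. The median SD of a gene within a group on the log2(FPKM + 1) scale was 0.258 in E2C, against 0.111 in MII and 0.206 in L2C, so the early 2-cell libraries carried the most scatter. The oocyte markers were all above 0 in each total RNA library. Of the granulosa and cumulus cell markers, between 2 and 8 of 15 were at 0 in a library, and their sum ran from 13.7 to 58.9 FPKM. Amh did not exceed 0.32 FPKM. Cyp19a1, Gja1, Kitl and Col4a1 were above 0 in every total RNA library and reached 6.72, 7.43, 2.04 and 3.92 FPKM, and Amhr2 reached 9.60 FPKM. The sum was lower in the knockout than in the control libraries of each stage, for example 27.2 to 40.2 against 56.2 to 58.9 FPKM in L2C, and its part in the Obox values was not tested. Nr5a2, which the embryo itself expresses, reached 38.1 FPKM and was the highest of these markers.

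All members lie in a cluster on chromosome 7. In GENCODE M21 (mm10) Obox1 (ENSMUSG00000054310) spans chr7:15388948-15556866 on the plus strand, Obox2 (ENSMUSG00000074369) chr7:15388721-15398545 on the plus strand, Obox3 (ENSMUSG00000066772) chr7:15479825-15639902 on the minus strand, Obox5 (ENSMUSG00000074366) chr7:15750131-15759800 on the plus strand and Obox6 (ENSMUSG00000041583) chr7:15833241-15839678 on the minus strand. The long Obox1 model covers most of the Obox2 gene on the same strand. The following stretches lie in coding exons and, in all genes but Obox2, encode a middle part of the homeodomain. They are shown because their likeness decides how well reads can be told apart between members, and because Obox6 stands apart in sequence. Capitals mark bases that differ from Obox1, read 5′ to 3′ on the coding strand of the reference genome.
Obox1 (chr7:15555609-15555668): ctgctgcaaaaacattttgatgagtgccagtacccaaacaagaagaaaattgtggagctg
Obox2 (chr7:15397292-15397350): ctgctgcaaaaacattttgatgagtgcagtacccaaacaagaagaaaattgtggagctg
Obox5 (chr7:15757983-15758042): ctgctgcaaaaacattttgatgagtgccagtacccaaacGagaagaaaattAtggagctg
Obox3 (chr7:15626832-15626891): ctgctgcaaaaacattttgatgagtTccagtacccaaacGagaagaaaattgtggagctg
Obox6 (chr7:15834416-15834475): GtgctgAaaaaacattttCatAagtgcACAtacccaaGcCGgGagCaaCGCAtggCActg
Obox7 (chr7:14664484-14664543): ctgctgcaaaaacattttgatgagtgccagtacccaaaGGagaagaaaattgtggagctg

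In this stretch Obox3 and Obox5 each differed from Obox1 at 2 of 60 bases, and so did Obox7, which is not among the 5. Obox6 differed at 18. Obox2 matched Obox1 in every base it has but is 1 base shorter, which shifts its annotated reading frame from that point on. Its annotated coding sequence is 453 bases long against 612 in Obox1. Over their whole aligned coding sequences Obox1 was 98.5% identical to Obox2, 95.6% to Obox5, 94% to Obox3 and 77.6% to Obox6. Of the exonic words of 50 bases, 65.1% of those of Obox2 and 57.4% of those of Obox1 were also found in another annotated gene, nearly all in each other. That share was 20.2% for Obox3, mostly in its annotated pseudogene copies, 18.1% for Obox5, mostly in Obox7, and 5.02% for Obox6. The separate values of Obox1 and Obox2 are therefore uncertain, those of Obox3 and Obox5 less so.

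The 5 genes fell into 2 patterns. Obox1, Obox2 and Obox5 were among the most abundant genes of the oocyte, ranking 48, 26 and 80 of 55401 genes by mean FPKM in control FGO, and in controls were at their lowest in L2C. Obox3 and Obox6 were at or below 0.44 FPKM in every library through L1C, and first rose in E2C. In knockout embryos the maternal trio was 2.07 to 3.17 times as high in L2C as in controls, and Obox6 was 5.45 times lower. Obox3 was 4.94 times lower in E2C and not detectably different in L2C.

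**Figure D1:**
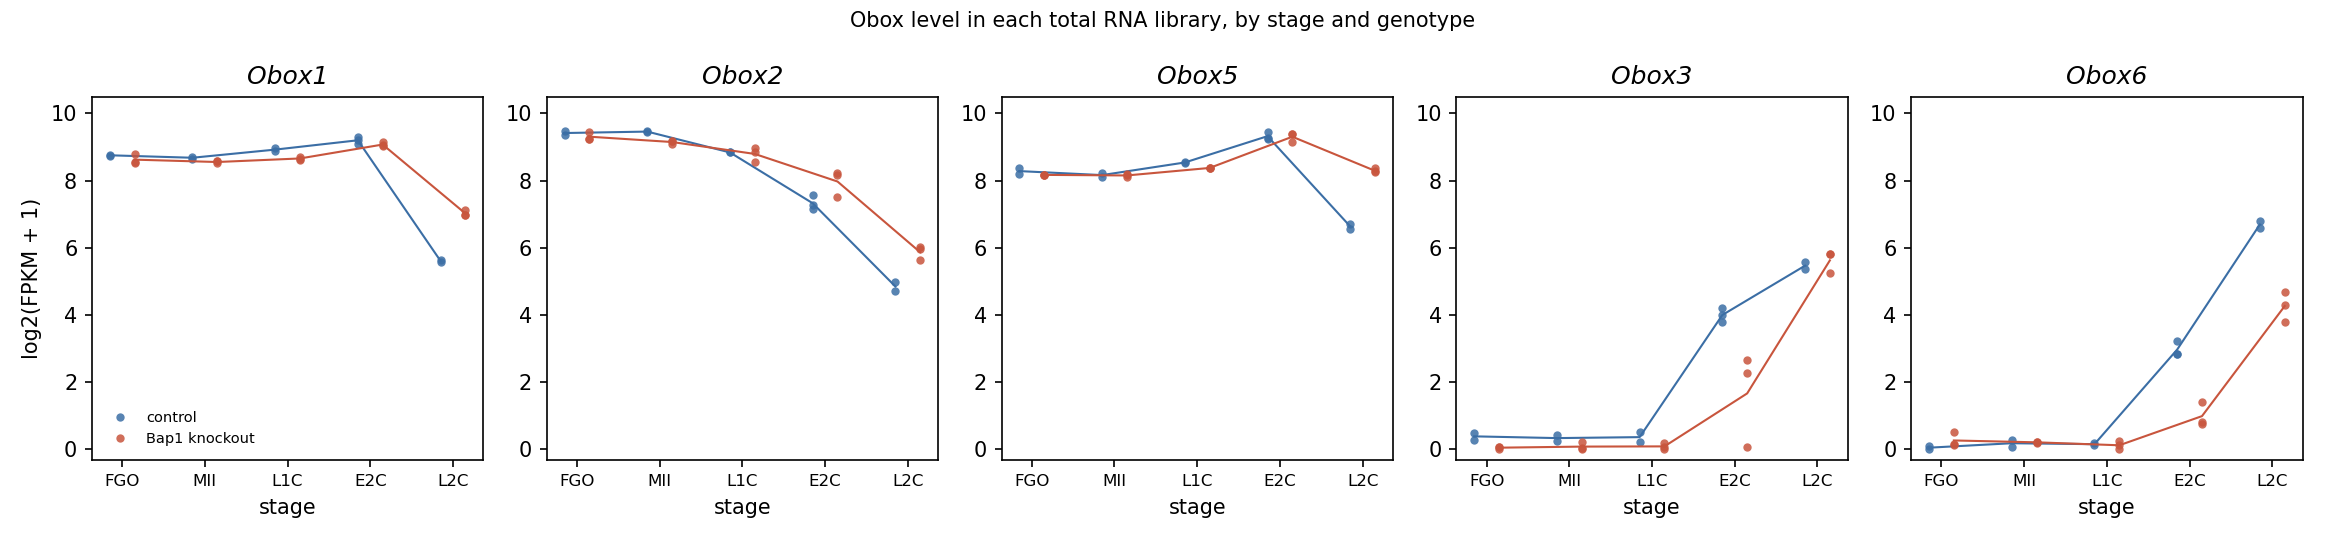
Level of each gene on the log2(FPKM + 1) scale (vertical axis) by stage (horizontal axis). Points are libraries, 2 or 3 per group, blue for controls and red for Bap1 knockouts, and lines join group means. The maternal Obox1, Obox2 and Obox5 end higher in knockout L2C, and Obox6 ends lower, while Obox3 is lower in knockout E2C and overlaps the controls in L2C.

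Obox1, a maternal member, measured 426 and 434 FPKM in control FGO and 399 and 419 FPKM in control MII eggs. It measured 470 and 498 FPKM in control L1C embryos, 548, 623 and 590.2 FPKM in control E2C embryos and 48.5 and 47.0 FPKM in control L2C embryos. In knockouts the values were 441, 373 and 369 FPKM in FGO, 363, 379.8 and 379.9 FPKM in MII, 393, 397 and 419 FPKM in L1C, 562, 519.9 and 529 FPKM in E2C and 123.7, 139 and 124 FPKM in L2C. By control means Obox1 was highest in E2C (587 ± 37.4, SD, n = 3), then in L1C (484 ± 19.7, SD, n = 2), FGO (430.1 ± 5.99, SD, n = 2), MII (409 ± 14.2, SD, n = 2) and L2C (47.8 ± 1.02, SD, n = 2). FGO and MII, neighbours in that order, did not differ in the test, and the step from L1C to E2C was lost in several settings. In L2C the 2 genotypes were far apart, the lowest knockout library being above the highest control library by more than the whole range of either group.

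Obox2, the maternal member closest to Obox1, measured 647 and 716 FPKM in control FGO, 691 and 712 FPKM in control MII, 456.5 and 455.6 FPKM in control L1C, 154, 187 and 140.5 FPKM in control E2C and 25.4 and 30.5 FPKM in control L2C. In knockouts it measured 699, 596 and 604 FPKM in FGO, 575, 576 and 546 FPKM in MII and 376, 460.2 and 499 FPKM in L1C. In knockout E2C it measured 183, 288 and 296 FPKM, and in knockout L2C 48.3, 63.4 and 61.5 FPKM. By control means the order was MII (701 ± 14.7, SD, n = 2), FGO (682 ± 48.8, SD, n = 2), L1C (456 ± 0.6, SD, n = 2), E2C (161 ± 24.1, SD, n = 3) and L2C (27.9 ± 3.66, SD, n = 2), with only MII and FGO overlapping. Obox2 was thus already far below its egg level in E2C, when Obox1 and Obox5 were at their highest.

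Obox5, the third maternal member, measured 292 and 329 FPKM in control FGO, 296 and 276 FPKM in control MII, 371 and 369.8 FPKM in control L1C, 617, 606 and 695 FPKM in control E2C and 103 and 93.8 FPKM in control L2C. The knockout values were 287.1, 286 and 287.4 FPKM in FGO, 289.6, 277 and 284 FPKM in MII, 334, 332 and 327 FPKM in L1C, 667, 562 and 669.6 FPKM in E2C and 301, 327 and 308 FPKM in L2C. By control means it was highest in E2C (639 ± 48.8, SD, n = 3), followed by L1C (370.5 ± 0.965, SD, n = 2), FGO (311 ± 26.04, SD, n = 2), MII (286 ± 14.1, SD, n = 2) and L2C (98.5 ± 6.63, SD, n = 2). FGO and MII overlapped in both genotypes. The FPKM of Obox5 in knockout L2C embryos was about that in oocytes, which does not give the amount of RNA per embryo.

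Obox3, a member transcribed by the embryo, did not pass 0.44 FPKM in any library of FGO, MII or L1C. In E2C it measured 17.4, 12.9 and 15.1 FPKM in controls and 3.82, 0.0564 and 5.30 FPKM in knockouts. In L2C it measured 40.2 and 46.6 FPKM in controls and 55.2, 36.8 and 55.7 FPKM in knockouts. The genotypes were separate in E2C and overlapped in L2C. They were also separate at the trace levels of FGO, MII and L1C, with control means of 0.315, 0.267 and 0.298 FPKM and knockout means of 0.0382, 0.0637 and 0.0679 FPKM, so the control was 8.24, 4.19 and 4.39 times higher. None of these 3 differences was called (adjusted p = 0.415, 0.511 and 0.521), nor was any called with a pseudocount of 0.1. Obox6 was separate at trace levels in FGO the other way, with means of 0.0387 FPKM in controls and 0.215 FPKM in knockouts, also not called (adjusted p = 0.404). The share of all genes whose groups separate was not computed, so separation at these levels is only a description. Knockout E2C replicate 2, the library with almost no Obox3, also had the lowest summed level of the 6 markers of the 2-cell embryo, 59.6 FPKM, against 168 and 146 FPKM in the other knockout libraries and 205 to 279 FPKM in controls. The tests were therefore also run without it.

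Obox6, the other member that rose in the embryo, was also at or below 0.44 FPKM through L1C. It measured 8.31, 6.23 and 6.19 FPKM in control E2C and 1.66, 0.675 and 0.767 FPKM in knockout E2C. In L2C it measured 109 and 96.2 FPKM in controls and 24.9, 12.9 and 18.8 FPKM in knockouts. The genotypes did not overlap at either 2-cell stage. By control means L2C (103 ± 9.37, SD, n = 2) stood above E2C (6.91 ± 1.22, SD, n = 3), and no control library of the 3 earlier stages was above 0.221 FPKM. For Obox3 the control order was likewise L2C (43.4 ± 4.56, SD, n = 2), E2C (15.1 ± 2.26, SD, n = 3) and then the earlier stages.

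Stage steps were tested in controls with limma on the log2(FPKM + 1) scale, with Benjamini-Hochberg adjustment over all genes tested and a threshold of 0.05. From FGO to MII 0 of the 5 members were called, while 5.39% of all genes tested were called. An unadjusted p under 0.05 was found for 0 members and for 2582 of all genes tested. From MII to L1C 3 of 5 were called against 25.4% of all genes. Obox5 rose by 0.38 ± 0.06 (SE, adjusted p = 7.41e-05), Obox1 rose by 0.24 ± 0.07 (SE, adjusted p = 0.0113) and Obox2 fell by 0.62 ± 0.12 (SE, adjusted p = 5.46e-04). With Obox1 and Obox2 summed before the fit, the pair fell by 0.24 ± 0.08 (SE, adjusted p = 0.0257), and the Obox1 call was also lost without control MII replicate 1 (adjusted p = 0.0864) or without control L1C replicate 2 (adjusted p = 0.132).

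From L1C to E2C all 5 members were called, against 47.2% of all genes. Obox3 and Obox6 passed the filter only through 2-cell libraries, so their rise to the 2-cell stage was largely fixed in advance. Their calls therefore add no support to that count. Obox3 rose by 3.63 ± 0.35 (SE, adjusted p = 3.40e-08), from a mean of 0.298 to 15.1 FPKM, and Obox6 rose by 2.81 ± 0.22 (SE, adjusted p = 1.64e-09), from 0.116 to 6.91 FPKM. Obox5 rose by 0.78 ± 0.08 (SE, adjusted p = 1.14e-07). Obox2 fell by 1.51 ± 0.17 (SE, adjusted p = 1.94e-07), so the maternal members went opposite ways. The rise of Obox1 by 0.28 ± 0.09 (SE, adjusted p = 0.0194) is the least firm. It was lost without control L1C replicate 1 (adjusted p = 0.0922) and without control E2C replicate 2 or 3 (adjusted p = 0.11 and 0.0566). It was 0.09 after scaling to TPM (adjusted p = 0.411) and 0.17 after quantile normalization (adjusted p = 0.0716), and the sum of Obox1 and Obox2 fell by 0.33 ± 0.11 (SE, adjusted p = 0.0144).

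From E2C to L2C, the time of major genome activation, all 5 members were again called, against 51.7% of all genes. Obox1 fell by 3.59 ± 0.11 (SE, adjusted p = 7.10e-15), Obox5 fell by 2.69 ± 0.10 (SE, adjusted p = 3.52e-14) and Obox2 fell by 2.48 ± 0.20 (SE, adjusted p = 2.02e-09). Obox6 rose by 3.72 ± 0.27 (SE, adjusted p = 3.55e-10), a 14.9-fold increase of the mean, and Obox3 rose by 1.47 ± 0.43 (SE, adjusted p = 0.00645), a 2.87-fold increase. The Obox3 call was lost with a pseudocount of 0.1 (adjusted p = 0.212) and after scaling to TPM (adjusted p = 0.0962). The shares of the E2C mean left in control L2C were 8.14% for Obox1, 15.4% for Obox5 and 17.4% for Obox2. In bulk libraries less RNA per embryo and fewer embryos with the RNA cannot be told apart.

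In knockout embryos the same steps were described without a test. Obox5 kept 49.3% of its E2C mean in L2C, Obox1 kept 24.0% and Obox2 kept 22.6%. Obox6 went from a mean of 1.04 ± 0.547 FPKM over the 3 E2C libraries (SD) to 18.9 ± 6.01 FPKM over the 3 L2C libraries (SD), an 18.2-fold step from a lower start than in controls. Obox3 went from 3.06 ± 2.71 to 49.2 ± 10.8 FPKM (means and SDs of the same libraries), a 16.1-fold step.

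The knockout was compared with the control within each stage in the same limma fit. In FGO 0 of the 5 members were called, against 13.9% of all genes. An unadjusted p under 0.05 was found for 0 members and for 4079 of all genes tested. The largest difference among the 3 abundant members there was that of Obox1, -0.13 ± 0.06 (SE), with a 95% interval from -0.26 to 0.005 and an adjusted p of 0.203. Without knockout FGO replicate 1 it was -0.21, with an adjusted p of 0.00348. In MII 1 member was called, against 16.8% of all genes. Obox2 was lower in knockout eggs (-0.31 ± 0.10, SE, adjusted p = 0.0396), the 3 knockout libraries lying below both controls, but the call was lost when any 1 of the 5 MII libraries was left out (adjusted p from 0.059 to 0.218).

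In L1C 1 member was called, against 17.6% of all genes. Obox1 was 1.20 times lower in knockout zygotes, a log2 difference of -0.26 ± 0.07 (SE, adjusted p = 0.00724). The call was lost without control L1C replicate 2 (adjusted p = 0.124) and for the sum of Obox1 and Obox2 (-0.15, adjusted p = 0.184). Obox5 also lay lower in all 3 knockout libraries, with a difference of -0.16 ± 0.06 (SE) and an adjusted p of 0.0567. The share of called members at these 3 stages was near or below that of all genes. It counts Obox3 and Obox6, which were too low at these stages to be readily called. Of the 3 abundant members 1 was called in MII and 1 in L1C.

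**Figure D2:**
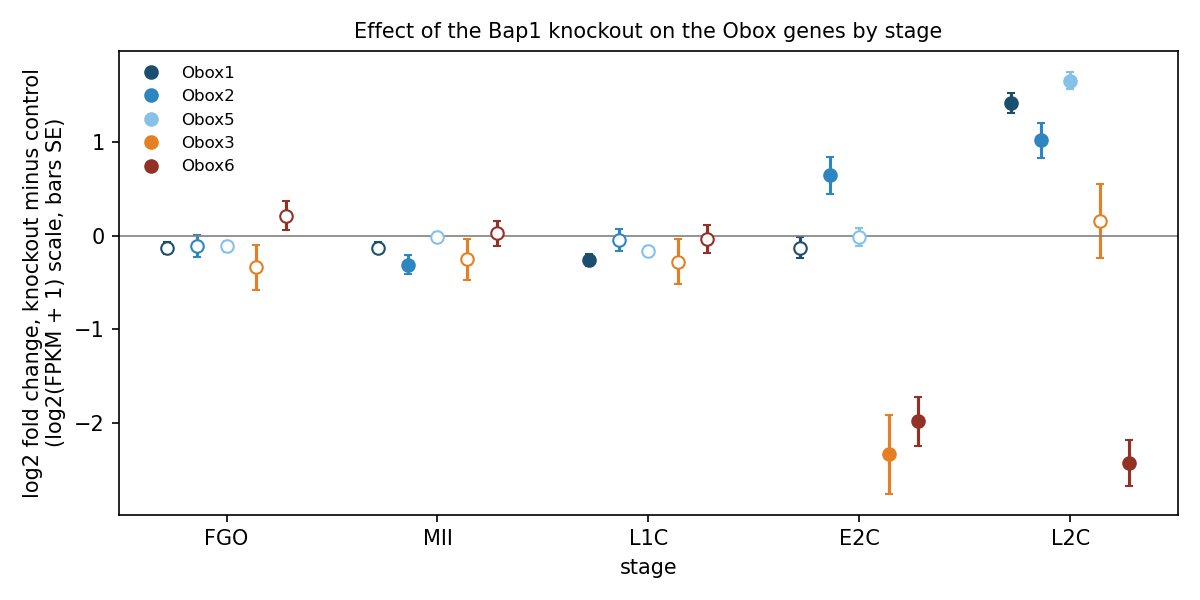
Difference between knockout and control on the log2(FPKM + 1) scale (vertical axis) for each gene at each stage (horizontal axis). Points are limma estimates with SE bars, filled where the adjusted p was under 0.05. The genes lie near 0 through L1C, Obox3 and Obox6 lie near -2 in E2C, and in L2C Obox1, Obox2 and Obox5 lie between 1.02 and 1.65 while Obox6 lies at -2.43.

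In E2C 3 of 5 members were called, against 13.5% of all genes (6.20% higher and 7.28% lower). Obox6 was 6.68 times lower in knockout embryos, a log2 difference of -1.98 ± 0.26 (SE, adjusted p = 4.56e-05), and ranked 70 from the lowest of 15184 genes. Obox3 was 4.94 times lower, with -2.33 ± 0.42 (SE, adjusted p = 8.00e-04), and ranked 36 from the lowest. Without knockout E2C replicate 2 the Obox3 difference was -1.54 ± 0.25 (SE, adjusted p = 6.17e-04), smaller and still called. Obox3 and Obox6 stayed called when any other single E2C library was left out.

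The third call in E2C was in the other direction. Obox2 was 1.59 times higher in knockout embryos, by 0.65 ± 0.20 on the log2 scale (SE, adjusted p = 0.033), although 1 knockout library (183 FPKM) lay below 1 control library (187 FPKM). It was lost without control replicate 1 or 3 or knockout replicate 2 or 3 of that stage (adjusted p from 0.113 to 0.138), with no filter on low values (0.0618), with the stage fitted alone (0.0663) and for the sum of Obox1 and Obox2 (0.752). Obox1 and Obox5 differed by -0.13 ± 0.11 (SE) and -0.02 ± 0.10 (SE) in E2C, with 95% intervals from -0.36 to 0.11 and from -0.22 to 0.19. Both groups overlapped for both genes.

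In L2C 4 of 5 members were called, against 34.2% of all genes (17.0% higher and 17.2% lower). Obox5 was 3.17 times higher in knockout embryos, by 1.65 ± 0.09 on the log2 scale (SE, adjusted p = 2.15e-10). Obox1 was 2.702 times higher, by 1.41 ± 0.11 (SE, adjusted p = 5.75e-09), and Obox2 was 2.07 times higher, by 1.02 ± 0.19 (SE, adjusted p = 2.52e-04). Obox6 was 5.45 times lower, with -2.43 ± 0.25 (SE, adjusted p = 3.13e-07), and ranked 27 from the lowest of 15184 genes. These 4 calls held with each L2C library left out in turn. The Obox3 difference was 0.16 ± 0.40 (SE, adjusted p = 0.809), with a 95% interval from -0.67 to 0.99, so a change of up to about that size either way was not detectable.

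Other oocyte transcripts were also higher in knockout L2C. The 11 oocyte markers summed to 540.3 and 568 FPKM in control L2C and to between 878 and 1008 FPKM in knockout L2C, and 8 of them were called higher and 0 lower, beside 17.0% and 17.2% of all genes. Most of these markers are, like Obox1, Obox2 and Obox5, transcripts stored in the egg. Whether the Obox values follow from a general difference in oocyte RNA was not tested. The 6 markers of the 2-cell embryo summed to between 273 and 375 FPKM in knockout L2C and to between 107 and 119 FPKM in controls. Of these markers 5 were called higher, and Tdpoz4, a 2-cell gene of the Tdpoz family, was lower (-1.75 ± 0.33, SE, adjusted p = 3.28e-04), with means of 25.0 and 7.33 FPKM.

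The interaction of genotype with stage, that is, how much the knockout effect changed from one stage to the next, was tested in the same fit. From FGO to MII 0 members were called, as were 0% of all genes (1678 of 15184 at an unadjusted p under 0.05, none of them members). Between MII and L1C 0 members were called against 0.198% of all genes (1904 of 15184 at an unadjusted p under 0.05, none of them members). Between L1C and E2C 2 of 5 were called against 3.35% of all genes, Obox6 with a change of the effect of -1.95 ± 0.30 (SE, adjusted p = 0.00147) and Obox3 with -2.06 ± 0.48 (SE, adjusted p = 0.0221). Both genes passed the filter only through 2-cell libraries, so the count is a description. The Obox3 call was lost without control L1C replicate 2 (adjusted p = 0.0737) or control E2C replicate 1 (adjusted p = 0.0743), and without knockout E2C replicate 2 its value was -1.26. With a pseudocount of 0.1, which gives more weight to the values near 0 before E2C, neither call was kept, with -2.44 ± 0.90 for Obox6 (SE, adjusted p = 0.179) and -2.10 ± 1.17 for Obox3 (SE, adjusted p = 0.435). The Obox3 call was also lost after scaling to TPM (adjusted p = 0.146), with the stages fitted alone (adjusted p = 0.107) and with the replicate block (adjusted p = 0.08).

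Between E2C and L2C 3 of 5 were called against 18.9% of all genes, all upwards. The effect changed by 1.67 ± 0.13 for Obox5 (SE, adjusted p = 1.20e-07), by 1.54 ± 0.15 for Obox1 (SE, adjusted p = 1.00e-06) and by 2.49 ± 0.58 for Obox3 (SE, adjusted p = 0.004). These calls held with each single E2C or L2C library left out, the Obox3 value ranging from 1.70 to 2.98. With a pseudocount of 0.1 the Obox3 call was lost, with a value of 3.50 (adjusted p = 0.0885). The change for Obox6 was -0.45 ± 0.36 (SE, adjusted p = 0.457) and that for Obox2 was 0.37 ± 0.27 (SE, adjusted p = 0.4). For the sum of Obox1 and Obox2 it was 1.20 ± 0.18 (SE, adjusted p = 6.40e-05). Obox3 and Obox6, which were low together in knockout E2C, were thus apart in L2C.

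The summed level of the 5 genes showed the same change of makeup. In E2C the 3 control libraries had a mean sum of 1409 ± 56.3 FPKM (SD) and the 3 knockout libraries one of 1430 ± 65.8 FPKM (SD). In L2C the 2 control libraries had 320.4 ± 8.77 FPKM (SD) and the 3 knockout libraries 567 ± 13.1 FPKM (SD). Obox3 and Obox6 made up 45.5% and 45.8% of it in the control L2C libraries and 14.5%, 8.57% and 13.1% in the knockout libraries. Obox5 was the largest single part in each knockout L2C library, from 54.2% to 56.5%, while Obox6 was the largest in both control libraries, with 33.5% and 30.6%. Sums and shares are descriptions with no test.

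**Figure D3:**
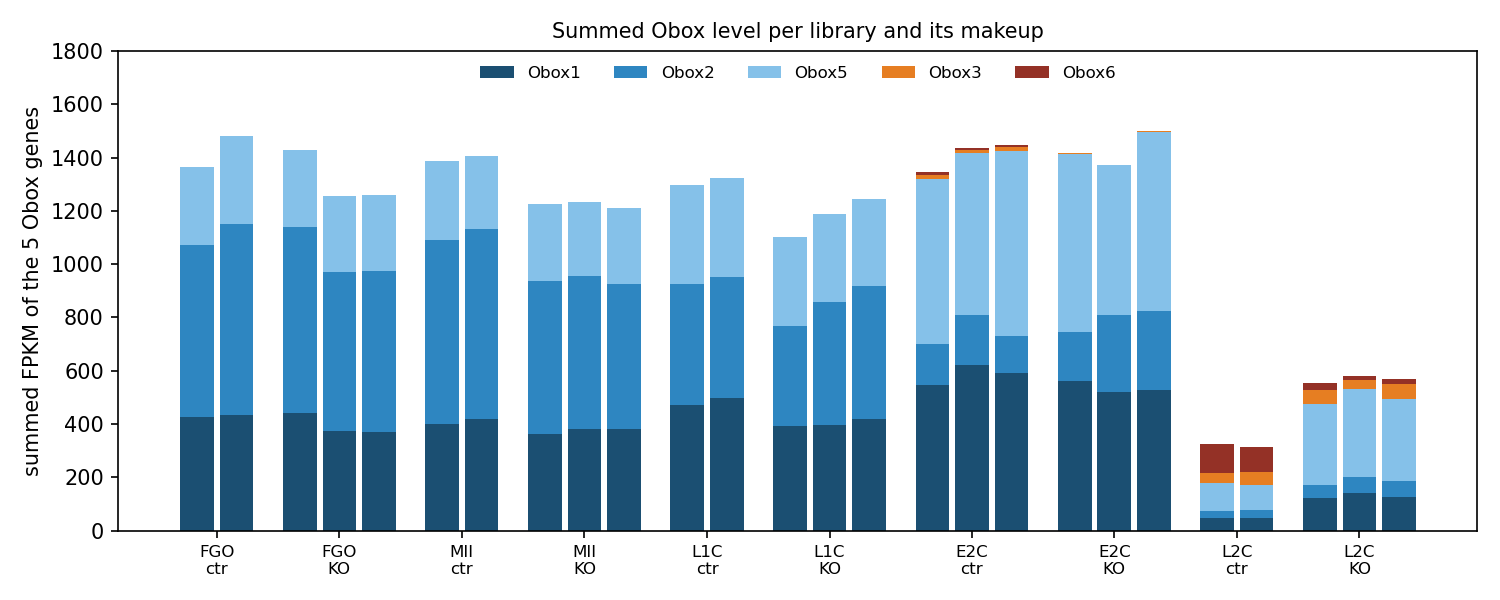
Summed FPKM of the 5 genes (vertical axis, from 0) in each of the 26 total RNA libraries, grouped by stage and genotype (horizontal axis, ctr for control and KO for Bap1 knockout), with the part of each gene in colour. In L2C the sum is 314 and 327 FPKM in controls, with Obox6 the largest part, and 553 to 580 FPKM in knockouts, with Obox5 the largest part.

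Across the 26 libraries Obox3 and Obox6 had a Pearson r of 0.938 on the log2(FPKM + 1) scale, Obox1 and Obox5 of 0.796, Obox1 and Obox2 of 0.776 and Obox2 and Obox5 of 0.28. The points share stage and genotype groups, so these values describe the stage pattern. Among 9781 other genes, predicted models left out, the one most like Obox6 was Pramel7, a leucine-rich repeat gene of the early embryo, with r = 0.99, followed by Calcoco2 (0.989) and Trim43a (0.988). Zfp622 (0.989), Rbmx (0.988) and Slc16a6 (0.988) were most like Obox3. Hmces (0.982), Mapre2 (0.981) and Birc3 (0.981) were most like Obox1, Dnah8 (0.989), Bcar3 (0.986) and Sod1 (0.984) most like Obox2, and Anxa7 (0.985), Ankrd17 (0.973) and Smap2 (0.971) most like Obox5.

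The table lists 50 further genes with Obox symbols, 48 of them named as pseudogenes, and 18 were tested. Obox7, a maternal member 96% identical to Obox5 in coding sequence, was lower in knockouts at every stage before L2C. It measured 44.1 and 46.8 FPKM in control FGO and 18.3, 10.93 and 11.04 FPKM in knockout FGO. The differences were -1.73 ± 0.19 in FGO (SE, adjusted p = 1.61e-06), -1.92 ± 0.17 in MII (SE, adjusted p = 6.18e-08), -2.25 ± 0.20 in L1C (SE, adjusted p = 4.91e-08) and -1.997 ± 0.34 in E2C (SE, adjusted p = 4.74e-04). In L2C it measured 6.53 and 7.45 FPKM in controls and 7.18, 6.29 and 5.77 FPKM in knockouts, with a difference of -0.11 ± 0.32 (SE, adjusted p = 0.837).

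Obox8, a divergent member 48.8% identical to Obox1 in coding sequence, was transcribed by the embryo like Obox6. It measured 2.14, 1.17 and 2.703 FPKM in control E2C and at most 0.322 FPKM in knockout E2C. In L2C it measured 53.1 and 60.1 FPKM in controls and 5.73, 8.98 and 8.61 FPKM in knockouts, 7.28 times lower by the means, with a log2 difference of -2.73 ± 0.21 (SE, adjusted p = 6.69e-09). The groups did not overlap at either stage.

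**Figure D4:**
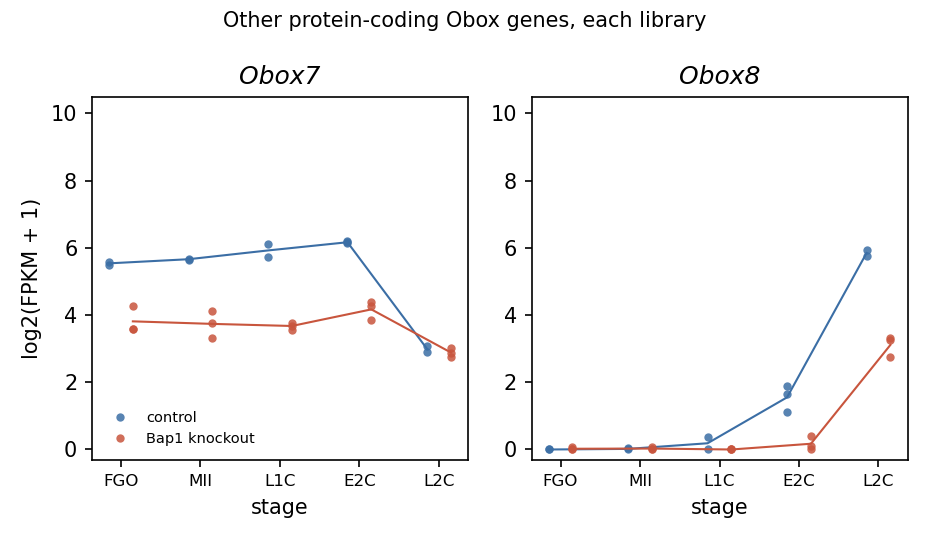
Level of Obox7 and Obox8 on the log2(FPKM + 1) scale (vertical axis) by stage (horizontal axis). Points are libraries, 2 or 3 per group, blue for controls and red for Bap1 knockouts, and lines join group means. Obox7 is lower in knockouts from FGO to E2C and level in L2C, and Obox8 is lower in knockouts in E2C and L2C.

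Of the 8 tested copies annotated for Obox3, 7 were lower in knockout E2C. The copy that was not called, Obox3-ps8, had a difference of 0.49 ± 0.24 (SE, adjusted p = 0.218), and the median over the 8 was -1.81. In L2C 1 of the 8, Obox3-ps7, was called higher (1.68 ± 0.52, SE, adjusted p = 0.0151) and 0 lower, with a median of -0.03. Obox4-ps35, which carries the symbol of the Obox4 group, measured 39.5, 38.6 and 24.0 FPKM in control E2C and 14.1, 3.25 and 22.8 FPKM in knockout E2C, a difference of -1.57 ± 0.40 (SE, adjusted p = 0.0118). In L2C it measured 33.2 and 47.6 FPKM in controls and 88.3, 44.8 and 59.7 FPKM in knockouts, a difference that was not called (adjusted p = 0.228). Over the 18 tested genes 2 were higher and 10 lower in knockout E2C, beside 6.20% and 7.28% of all genes. There Obox4-ps37 rose by 1.81 ± 0.35 (SE, adjusted p = 0.00145) and Obox4-ps33 rose by 1.24 ± 0.24 (SE, adjusted p = 0.0013). In knockout L2C, where 17.0% of all genes were higher and 17.2% lower, 3 were higher (Obox3-ps7, Obox4-ps31 and Obox4-ps33) and 2 lower (Obox8 and Obox6-ps1, the annotated copy of Obox6, at -1.06 ± 0.16, SE, adjusted p = 2.67e-05).

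The Obox genes were set beside regulators of genome activation. Of 26 tested regulators, 3 were higher and 6 lower in knockout E2C, beside 6.20% and 7.28% of all genes. Their median difference was -0.24 against 0 over all genes. Duxf3, the Dux gene that drives the 2-cell programme, rose there by 2.05 ± 0.28 (SE, adjusted p = 5.61e-05), from 4.86 ± 1.35 to 22.95 ± 4.19 FPKM (SD, n = 3 each). Dppa4, a maternal activator of Dux, fell by 1.93 ± 0.34 (SE, adjusted p = 6.86e-04). In L2C 8 were higher and 12 lower, beside 17.0% and 17.2% of all genes. Zscan4f, a 2-cell zinc finger gene, rose by 2.37 ± 0.44 (SE, adjusted p = 3.07e-04), and Tead4, a regulator of the trophectoderm lineage, was lower (-2.12 ± 0.18, SE, adjusted p = 2.65e-08).

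Of 31 other tested homeobox genes, 3 were higher and 5 lower in knockout E2C, with a median difference of -0.05, beside 6.20% and 7.28% of all genes. In knockout L2C 11 were higher and 7 lower, with a median of 0.27, beside 17.0% and 17.2% of all genes. Crxos, which lies in the Crx class with the Obox genes, was the one with the largest fall in L2C. It fell by 2.15 ± 0.38 (SE, adjusted p = 1.67e-04), with 87.7 ± 8.96 FPKM in the 2 control libraries and 19.9 ± 7.41 FPKM in the 3 knockout libraries (mean ± SD). In E2C the homeobox gene with the largest fall was Otx1 (-1.31 ± 0.35, SE, adjusted p = 0.0149).

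Of 24 tested oocyte genes, 15 were higher and 0 lower in knockout L2C, beside 17.0% and 17.2% of all genes. Their median difference was 0.63 against 0.03 over all genes. This list holds nearly all of the oocyte markers described above, so both counts are not separate results. Kpna7, the oocyte importin, rose most, by 1.66 ± 0.09 (SE, adjusted p = 2.15e-10), about as much as Obox5. In knockout E2C 4 were higher and 1 lower, beside 6.20% and 7.28% of all genes. Figla, an oocyte transcription factor, rose there by 1.20 ± 0.33 (SE, adjusted p = 0.0197) and Btg4, an adaptor for removal of maternal RNA, fell by 0.34 ± 0.10 (SE, adjusted p = 0.0243).

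Of 32 tested 2-cell genes, 2 were higher and 12 lower in knockout E2C, with a median difference of -0.81, beside 6.20% and 7.28% of all genes. In knockout L2C 18 were higher and 7 lower, with a median of 0.97, beside 17.0% and 17.2% of all genes. All 6 markers of the 2-cell embryo are in this list. Pramel7 fell most at both stages, with -2.51 ± 0.25 in E2C (SE, adjusted p = 2.75e-06) and -2.75 ± 0.24 in L2C (SE, adjusted p = 4.13e-08). The values of Obox6 were -1.98 and -2.43. As mean FPKM in E2C, Pramel7 fell further, from 5.95 in controls to 0.225 in knockouts, against 6.91 to 1.04 for Obox6. Pramel7 was the gene most like Obox6 over these same libraries, so its fall is not a separate result. AW822073 rose most in E2C, by 2.15 ± 0.23 (SE, adjusted p = 4.58e-06), and Gm5662 in L2C, by 2.44 ± 0.34 (SE, adjusted p = 1.49e-05).

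At embryonic day 6.5 the 5 genes were nearly silent. Obox1 and Obox2 were listed at 0 in all 11 poly(A) libraries. Obox3 was listed at 0 in 7 of 11 and reached at most 0.475 FPKM, in knockout epiblast replicate 1. Obox5 was listed at 0 in 6 of 11 and reached at most 0.262 FPKM, in control epiblast replicate 1, and Obox6 was listed at 0 in 5 of 11 and reached at most 0.242 FPKM, in knockout visceral endoderm replicate 2. These libraries were made with another kit, so their values were not tested against the total RNA libraries, and at such levels no difference between genotypes was read.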

How the data were processed

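Libraries of total RNA from oocytes, eggs and 1-cell and 2-cell embryos were made with the SMART-Seq Stranded Kit, per the labels' protocols, and the day 6.5 libraries from poly(A) RNA. The authors deposited FPKM per gene, 1 table for each library type. Per the submitters' processing notes, Trim Galore 0.6.6, STAR 2.7.9, StringTie 2.1.7 and build mm10 were used. The annotation and whether counting used the strand are not given in the sources used here, so near-identical and overlapping genes are uncertain. The deposited column of control epiblast replicate 1 holds 1 value below 0, was recorded as another unit and is used here only for levels. FPKM keeps no depth, so no counting error was computed. It is relative to the RNA of its library, so stage comparisons are of relative levels and not of RNA per embryo. Each of the columns was matched to 1 sample by name.

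Values were analysed as log2(FPKM + 1), which understates changes of low genes, keeping a gene if 2 or more libraries reached 1 FPKM. All 26 total RNA libraries were fitted together with limma 3.58.1 in R 4.3.3 as 10 group means, with array weights per stage, since early 2-cell libraries scatter more, and eBayes with trend. Adjusted p-values are Benjamini-Hochberg over all 15184 genes within a contrast. The fit was tested on simulated data. Coding sequences were aligned with mafft 7.526, and exonic words of 50 bases were compared between all genes of GENCODE M21. Plots used matplotlib 3.10.9.

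The members and gene lists were chosen with earlier results of these data known. The genes named were the members, other Obox genes, Bap1, the 3 genes most like each member (mean of at least 1 FPKM, no predicted or clone-named models), and from each list the gene called with the largest change in each direction in E2C and L2C. One gene that this rule names is not reported here. Other Obox genes are described singly only where they are expressed, a choice made after their values were seen. Replicate numbers are not said to pair samples. The alternatives were a pseudocount of 0.1, other filters (none, or a minimum mean of 5 FPKM), scaling to TPM, median centring, quantile normalization within a stage, no array weights, no trend, a replicate block, stages fitted alone, summing each member with its most alike Obox gene, and leaving out each library.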

Additional observations from a re-analysis of the deposited data

Results flagged for a closer look

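By the interaction test in limma, the knockout effect was called as different between consecutive stages for 4 of the 5 genes. In the step from L1C to E2C 2 of 5 were called against 3.35% of all genes, and in that from E2C to L2C 3 of 5 against 18.9%. Both genes called in the first step passed the filter only through 2-cell libraries, so that count is a description. From L1C to E2C the effect changed by -2.06 for Obox3 and by -1.95 for Obox6 on the log2(FPKM + 1) scale, as the genes rose in control embryos to 15.1 and 6.91 FPKM and in knockout embryos to 3.06 and 1.04 FPKM. Both calls were lost with a pseudocount of 0.1 (adjusted p = 0.435 and 0.179), and that of Obox3 also after scaling to TPM, with the stages alone and with the replicate block. As a ratio of means Obox3 was 4.39 times lower in knockouts in L1C, at under 0.44 FPKM, and 4.94 times lower in E2C. From E2C to L2C the effect rose by 1.54 for Obox1, by 1.67 for Obox5 and by 2.49 for Obox3. For Obox1 and Obox5 the E2C groups overlapped and the L2C groups did not. For Obox3 the E2C groups did not overlap and the L2C groups did. The value of Obox3 depends in size on knockout E2C replicate 2, without which the last change was 1.70. The Obox3 call from E2C to L2C was also lost with a pseudocount of 0.1 (adjusted p = 0.0885).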

How the results depend on the processing

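Of 1131 values of single genes under alternatives, 1081 kept their side of the threshold, and 50 of these were uncalled differences that changed sign. A call was lost in 38, gained in 10 and reversed in 2. The reversed ones arose when Obox1 and Obox2 were summed, which gave -0.24 instead of a rise of Obox1 from MII to L1C and -0.33 from L1C to E2C. The following counts of members called moved by more than 1.5 times. For the knockout in MII (1) the count was 0 with TPM scaling, median centring, no array weights, no trend or the replicate block, 2 with quantile normalization and 3 with summed copies (the sum of Obox1 and Obox2, which stands for both, and Obox5 with Obox7). For the knockout in FGO (0) it was 1 with quantile normalization and with summed copies, and in L1C (1) it was 2 with a mean of at least 5 FPKM. For the change of the effect from L1C to E2C (2) it was 0 with a pseudocount of 0.1, and 1 with TPM scaling, the replicate block or the stages alone. With single libraries left out the counts ran from 0 to 1 in FGO, from 0 to 1 in L1C and from 1 to 3 for that change, and were 0 for each MII library. Smaller moves were from 3 to 2 for the knockout in E2C (no filter, the stage alone, summed copies, and without control replicate 1 or 3 or knockout replicate 2 or 3). The step from MII to L1C went from 3 to 2 (no array weights, and without control MII replicate 1 or L1C replicate 2). The step from L1C to E2C went from 5 to 4 (TPM, quantile normalization, the replicate block, and without control L1C replicate 1 or E2C replicate 2 or 3). The step from E2C to L2C went from 5 to 4 (pseudocount 0.1, TPM), and the change of effect over it from 3 to 2 (pseudocount 0.1) or 4 (summed copies). The knockout calls of Obox3 and Obox6 in E2C and of Obox1, Obox2, Obox5 and Obox6 in L2C held in every alternative run. The rise of Obox3 from E2C to L2C in controls was lost with a pseudocount of 0.1 (adjusted p = 0.212) and TPM scaling (0.0962), and the Obox3 change of effect over that step with a pseudocount of 0.1 (0.0885). Obox5 summed with Obox7 was called lower in FGO (-0.24), MII (-0.18) and L1C (-0.33). The cause of these moves was not tested. Same-numbered libraries did not deviate together (r from -0.077 to 0.142 in 11 pairs, 1 over 0.1), and with the replicate block the Obox3 change of effect from L1C to E2C had an adjusted p of 0.08, Obox2 in MII of 0.0604 and the Obox1 step from L1C to E2C of 0.0729, with no other call changed. Scaling moved the median difference of all genes by over 0.1 in several contrasts, to 0.156 for the knockout in L2C with TPM and to 0.105 in MII with median centring, and, for example, in stage steps to -0.265 (L1C to E2C, TPM), 0.162 (MII to L1C, centring) and -0.229 (E2C to L2C, centring). The number of all genes called, the background of the member counts, also depends on the settings. Without array weights the knockout in E2C had 4407 calls (29% of genes) in place of 2046, and that in FGO 903, in MII 895 and in L1C 1176 in place of 2107, 2545 and 2675. Over all alternatives the share of genes called ran from 5.95% to 14.4% in FGO, from 5.89% to 21.7% in MII, from 7.59% to 22.1% in L1C, from 5.55% to 29% in E2C and from 10.7% to 50% in L2C. FPKM gives no depth, so levels under about 1 FPKM are the least reliable.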
